A study of Homo sapiens with 5 samples.

Results

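BCL2 family genes were followed on 5 Affymetrix Human Genome U133 Plus 2.0 arrays of C4-2B RNA. C4-2B is a prostate cancer cell line that was derived from LNCaP and forms metastases in bone. The 10 members were chosen by name as the core of the family, and a member was measured by every probe set that the platform gene table assigns to that gene alone. By this rule 9 of the 10 genes had 30 probe sets, out of 19775 genes and 54613 probe sets on the arrays. BBC3, the BH3-only gene for PUMA, had 0 probe sets of its own, since the 1 probe set that carries its name is shared with other genes, so no value is given for it. The control cells received 0.1% DMSO, the solvent, for a time not given in the sources used here. BR-DIM, written B-DIM in the labels, is a formulated 3,3′-diindolylmethane and was given at 25 µM for 6 h or 48 h. Isoflavone (G2535) is a soy mixture rich in genistein and was given at 25 µM, counted as genistein, for 6 h or 72 h. All groups share the cell line, the serum-containing RPMI medium and the array type, and the study profiled them to learn how the agents alter gene expression in prostate cancer cells.

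The BCL2 family controls the mitochondrial pathway of apoptosis. BCL2, BCL2L1 (BCL-XL) and MCL1 are survival proteins that hold the effectors BAX and BAK1 in check, and the effectors, once free and active, perforate the outer mitochondrial membrane so that cytochrome c is released and caspases are activated. BID, BIK, BCL2L11 (BIM), PMAIP1 (NOXA) and BBC3 are BH3-only proteins, which carry stress signals to this step by binding the survival proteins or by activating the effectors. Several of these proteins are controlled by turnover, cleavage or phosphorylation as well as by their mRNA, and an array measures the mRNA only.

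With 1 array per condition there was no replicate, so no difference was tested and every value describes these 5 arrays. The values are MAS5 signals, linear intensities with 1 value per probe set. Ratios are on the log2 scale. Before they were taken, any signal below 97.1 was raised to that value, which is the median over all probe sets and arrays and is called the floor here. A gene was called at a difference of at least 2-fold (a log2 ratio of 1 or more in size), and it was measured in a comparison if either array lay above the floor. A ratio with 1 array under the floor is a bound. A gene with several probe sets is represented by the one whose mean signal is highest, called its main or brightest probe set, and the others are given after it. The 4 ratios to the control all share the same control array, and a level is compared only with the same probe set on another array.

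The labelled cell type was checked against 11 markers of prostate luminal epithelium and the LNCaP lineage, of which 9 had a probe set. All 9 lay above the floor on the control, 6 h BR-DIM and 72 h isoflavone arrays, and 5 on each of the 48 h BR-DIM and 6 h isoflavone arrays. Their summed signal was between 10931 and 13092 on the former arrays, against 1869.0 on 48 h BR-DIM and 1292 on 6 h isoflavone, where all 9 were at least 2-fold lower than in the control. On 72 h isoflavone 2 of the 9 (KLK3 and KLK2) were lower, and on 6 h BR-DIM 0. KLK2, TMPRSS2 and FOLH1 were under the floor on 48 h BR-DIM and 6 h isoflavone. KLK3 was 5096 in the control, 14.6 on 48 h BR-DIM and 269.5 on 6 h isoflavone. The leukocyte marker PTPRC and the basal keratins KRT5 and KRT14 were under the floor on all 5 arrays. LCP1 of the leukocyte list was 650.6 in the control, 13.2 on 48 h BR-DIM and 22.8 on 6 h isoflavone, and VIM was the stromal marker that made up most of its list, at 22024 in the control and 50009 on 48 h BR-DIM. In such bulk RNA, fewer cells of a type and less RNA per cell cannot be told apart. Of 9 measured housekeeping genes, 1 (TFRC, on 48 h BR-DIM) was called on any treated array. The part of these differences in the values below was not tested, and results that rest on 48 h BR-DIM or 6 h isoflavone are named as such.

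Most members stayed within 2-fold of the control. On 6 h BR-DIM 0 of 9 members were called, where 2.86% of all genes were higher and 0.806% lower. On 48 h BR-DIM PMAIP1 was called higher (5.33% of all genes) and BCL2L1 lower (3.87%). On 6 h isoflavone 0 members were higher (1.18%) and 3 were lower (3.82%), namely BCL2L1, BAK1 and BIK. On 72 h isoflavone 0 of 9 were called in either direction, beside 4.8% of all genes higher and 2.06% lower. The 3 lower members on 6 h isoflavone are a larger share than the background there. The members were chosen with earlier results of these data known, so this is no test. On the other arrays the counts of 0 or 1 of 9 are too few to be read as a share. The median log2 ratio of the 9 members was 0.01 on 6 h BR-DIM, -0.35 on 48 h BR-DIM, -0.30 on 6 h isoflavone and -0.26 on 72 h isoflavone, beside 0.07, 0.06, 0.00 and 0.05 over all measured genes. On the last 3 arrays the members' median was thus below that of all genes.

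**Figure D1:**
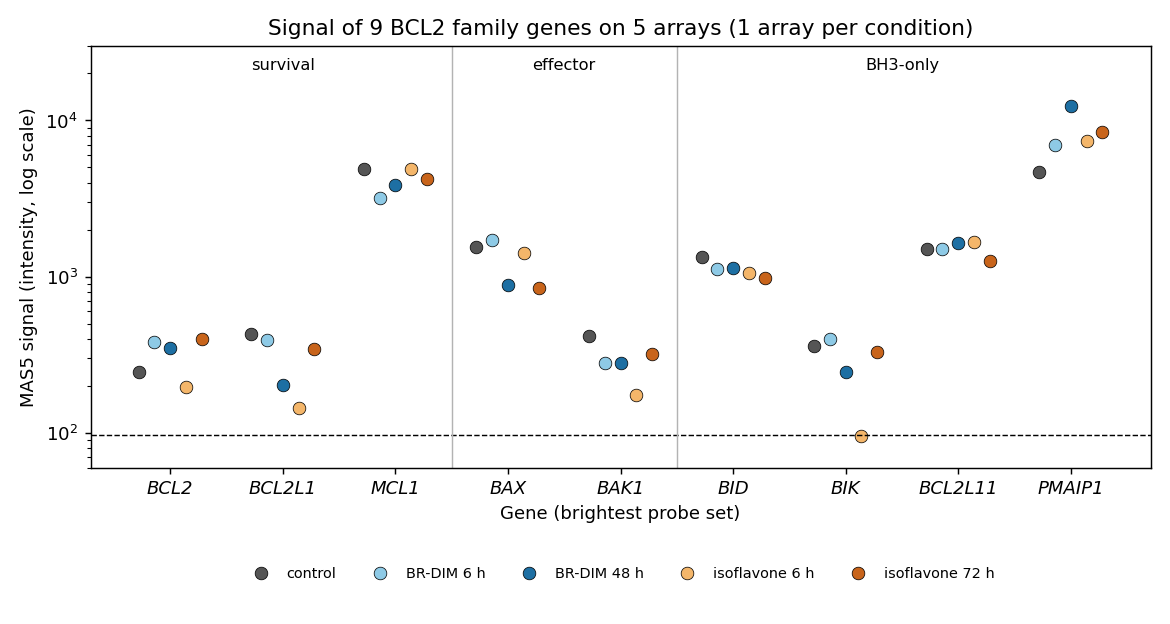
MAS5 signal (intensity, log scale) of the main probe set of 9 BCL2 family genes, 1 point for each array, and a dashed line at the floor (97.1). PMAIP1 lies above its control point on all 4 treated arrays, BAX is lowest on 48 h BR-DIM (881) and 72 h isoflavone (841), and BCL2L1, BAK1 and BIK are lowest on 6 h isoflavone.

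The promoters of PMAIP1, BCL2L1 and BAX, the members described at most length below, are shown first so that the sequence at their start can be read beside the values. They were taken from RefSeq on GRCh38.p14 as 250 bases before to 50 after the gene's start. Of the 10 members 8 matched, and MCL1 and BIK were not among them. Each is written 5′ to 3′ on the gene's strand, with TGACG, the core of the CREB/ATF site, in capitals on whichever strand it falls. PMAIP1 lies at chr18:59899746-59900045 on the plus strand, BCL2L1 at chr20:31723914-31724213 on the minus strand and BAX at chr19:48954625-48954924 on the plus strand.
PMAIP1: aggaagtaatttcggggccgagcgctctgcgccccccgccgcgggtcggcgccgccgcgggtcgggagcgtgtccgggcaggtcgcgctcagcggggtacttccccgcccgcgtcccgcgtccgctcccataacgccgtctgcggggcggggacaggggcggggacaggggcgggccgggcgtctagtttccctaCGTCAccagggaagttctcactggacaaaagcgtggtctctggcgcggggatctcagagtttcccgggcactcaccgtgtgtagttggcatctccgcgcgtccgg
BCL2L1: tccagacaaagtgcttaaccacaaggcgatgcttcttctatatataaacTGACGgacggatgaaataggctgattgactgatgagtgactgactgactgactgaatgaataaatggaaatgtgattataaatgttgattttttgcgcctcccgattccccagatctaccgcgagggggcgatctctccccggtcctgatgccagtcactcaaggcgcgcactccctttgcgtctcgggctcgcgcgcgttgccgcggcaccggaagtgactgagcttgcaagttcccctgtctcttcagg
BAX: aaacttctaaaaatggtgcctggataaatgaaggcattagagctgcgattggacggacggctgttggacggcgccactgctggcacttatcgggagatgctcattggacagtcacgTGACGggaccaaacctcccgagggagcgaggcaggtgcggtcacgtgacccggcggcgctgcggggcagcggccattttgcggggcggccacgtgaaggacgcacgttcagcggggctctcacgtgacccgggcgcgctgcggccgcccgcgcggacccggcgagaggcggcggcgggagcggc
Each of these promoters holds 1 match to TGACG, and the match of PMAIP1 begins 55 bases before the start. Of the other matched members, BCL2 holds 1 match, and BAK1, BID, BCL2L11 and BBC3 hold 0. Among 27305 RefSeq promoters of this length, 25.0% hold at least 1. The match of BAX shares bases with CACGTG, an E-box, of which the BAX promoter holds 4 and 7.43% of promoters at least 1. The composite element of C/EBP and ATF factors, TGATGNAA, was sought on both strands too, and 0 of the 8 members had it, beside 3.67% of all promoters. GC boxes (GGGCGG) numbered 4 in PMAIP1, 2 in BAX and 0 in BCL2L1, and 44.6% of promoters hold at least 1. Such matches describe letters in this window only.

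PMAIP1 was the one member called higher than the control. It has the promoter with 4 GC boxes printed above and encodes NOXA, a BH3-only protein that binds MCL1. Its signal was 4712 in the control, 7001 on 6 h BR-DIM, 12412 on 48 h BR-DIM, 7346 on 6 h isoflavone and 8484 on 72 h isoflavone. It was above the control on 4 of 4 treated arrays and highest after 48 h of BR-DIM, with log2 ratios of 0.57, 1.40, 0.64 and 0.85 in that order. On 48 h BR-DIM this is 2.63-fold, the 211th highest ratio among 12921 measured genes, on an array that was low in luminal markers. Its other probe set read 3127 in the control, 5886, 12013, 3984 and 8914 on the treated arrays. That probe set gave log2 ratios of 0.91, 1.94, 0.35 and 1.51, so by it PMAIP1 passed 2-fold on 72 h isoflavone as well (3.84-fold on 48 h BR-DIM and 2.85-fold on 72 h isoflavone). Both probe sets were higher at the later time than at 6 h of the same agent, by 0.83 and 1.03 with BR-DIM and by 0.21 and 1.16 with isoflavone. With 1 control array, length of exposure and time in culture cannot be told apart here. Both have IDs ending in _s_at, a kind whose probes may match several transcripts, and PMAIP1 has no probe set of another kind here.

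BIK, BID and BCL2L11, the other measured BH3-only members, were not called higher on any treated array. BIK, which acts at the endoplasmic reticulum, was 362 in the control, 401 on 6 h BR-DIM, 247 on 48 h BR-DIM, 95.9 on 6 h isoflavone and 329 on 72 h isoflavone. Its single low point was on 6 h isoflavone, under the floor, at least 3.73-fold below the control (log2 ratio -1.90) and the 62nd lowest ratio among 12456 genes, on an array that was also low in luminal markers. On 48 h BR-DIM it was -0.55. BID, which caspase-8 cleaves to link death receptors with mitochondria, stood at 1346 in the control, and its 4 treated values ran from 984 to 1135. Its 3 probe sets were below the control on all 4 treated arrays, from -0.64 to -0.04, and none reached 2-fold.

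BCL2L11 encodes BIM, an activator of BAX and BAK1 with several splice forms, and had 7 probe sets, all measured on each treated array. Its main probe set read 1500.5 in the control, 1510.0 on 6 h BR-DIM, 1646 on 48 h BR-DIM, 1674 on 6 h isoflavone and 1255 on 72 h isoflavone, with log2 ratios of 0.01, 0.13, 0.16 and -0.26. The 7 probe sets differed among themselves on 48 h BR-DIM, where 4 were above and 3 below the control, from -1.22 to 0.34. On 72 h isoflavone all 7 were below it, from -1.37 to -0.26, and on 6 h BR-DIM 6 of 7 were. The probe set with the lowest ratio on 72 h isoflavone went from 272 in the control to 135 on 6 h BR-DIM, 300.1 on 48 h BR-DIM, 199 on 6 h isoflavone and 105.5 on 72 h isoflavone. Another read 1201 in the control and 515 on 48 h BR-DIM, the lowest of its 5 arrays. Which splice form each of them detects was not examined here.

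**Figure D2:**
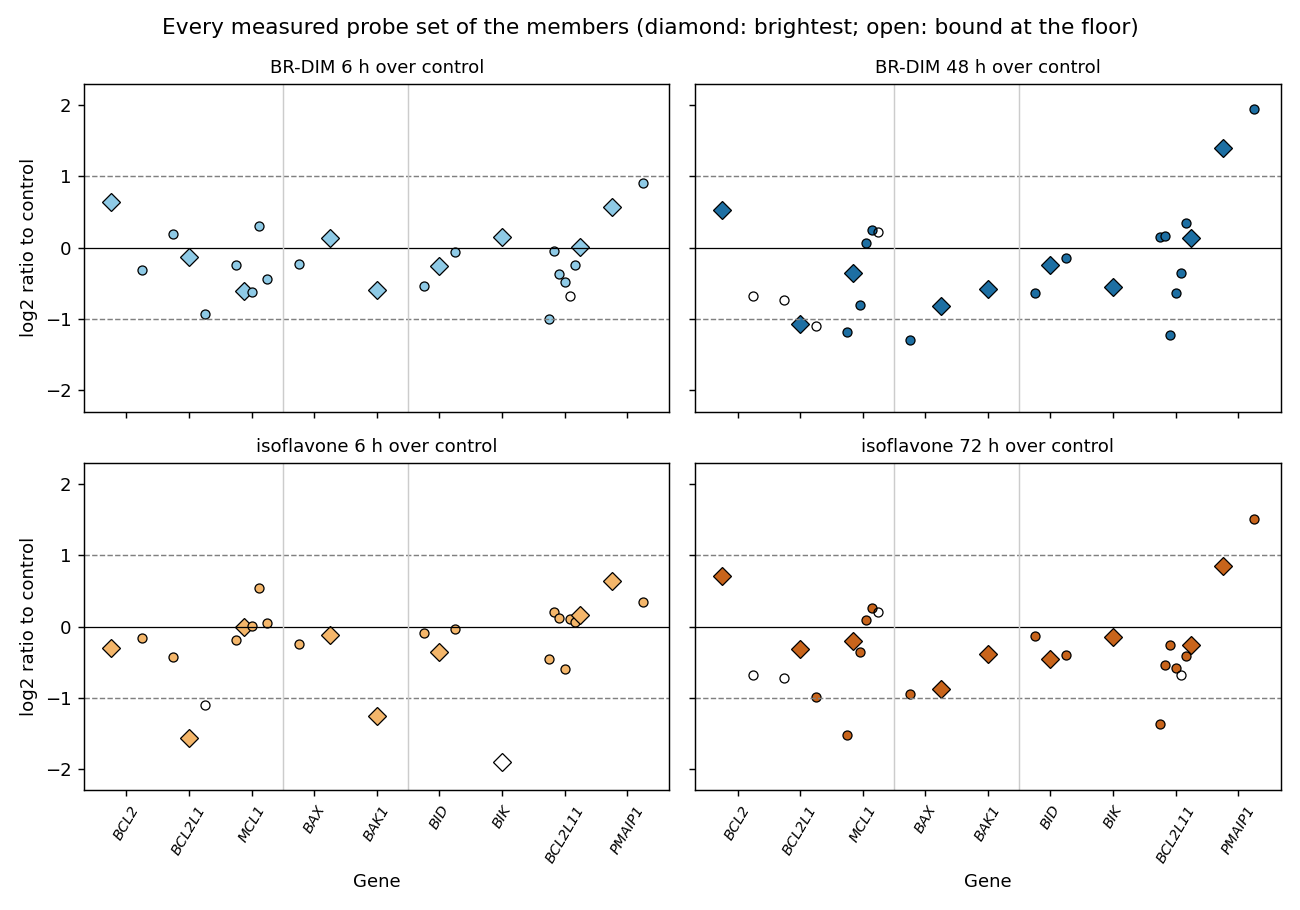
Log2 ratio to control (vertical axis) of every measured probe set of the 9 genes on each treated array, with 1 panel per array. Diamonds are the main probe sets, circles the others, open points bounds at the floor and dashed lines mark 2-fold; both PMAIP1 probe sets lie above 0 in all 4 panels, while the probe sets of MCL1 and BCL2L11 spread on both sides of 0 on 48 h BR-DIM.

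Among the survival genes, BCL2L1 was the one called. Its signal was 427 in the control, 391 on 6 h BR-DIM, 204 on 48 h BR-DIM, 144.5 on 6 h isoflavone and 343 on 72 h isoflavone. The low values were those of 48 h BR-DIM (2.10-fold below the control, log2 ratio -1.07) and 6 h isoflavone (2.96-fold, -1.56), the same arrays on which the luminal markers were low. Of its other probe sets, 1 gave -0.94 on 6 h BR-DIM, just under 2-fold below the control on 72 h isoflavone and a bound of -1.10 on each of the other treated arrays. The remaining measured one lay between -0.73 and 0.20. The call on 48 h BR-DIM is lost with the floor as pseudocount (-0.80) or with all probe sets averaged (-0.97). All 3 measured BCL2L1 probe sets were below the control on 48 h BR-DIM, 6 h isoflavone and 72 h isoflavone.

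BCL2, the founding member of the family, was 244 in the control, 382 on 6 h BR-DIM, 350.4 on 48 h BR-DIM, 198 on 6 h isoflavone and 399.7 on 72 h isoflavone. It was higher than the control on 3 of 4 treated arrays, by 1.56-, 1.44- and 1.64-fold, and lower on 6 h isoflavone. A second BCL2 probe set, at 156 in the control, was below the control on all 4 arrays (-0.31, -0.68, -0.16 and -0.68, the values of -0.68 being bounds), and the other ones did not reach the floor on any array. The direction of BCL2 therefore depends on the probe set on 3 of 4 arrays.

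MCL1 encodes a short-lived survival protein. Its main probe set read 4907 in the control, 3207 on 6 h BR-DIM, 3842 on 48 h BR-DIM, 4907 on 6 h isoflavone and 4244 on 72 h isoflavone. It was lowest on 6 h BR-DIM (log2 ratio -0.61, or 1.53-fold), and 6 h isoflavone gave the control's value. A second one, at 2855 in the control, gave -0.63 and then -0.81 for BR-DIM, against 0.01 and then -0.35 for isoflavone. Another fell by more than 2-fold at the later times, from 503 in the control to 221 on 48 h BR-DIM (-1.19) and 176 on 72 h isoflavone (-1.52). Probe sets whose ID does not end in _s_at or _x_at gave 0.31 and -0.44 on 6 h BR-DIM and between 0.07 and 0.26 on the later arrays. MCL1 as a gene was therefore not called, and its probe sets disagreed in direction on 48 h BR-DIM and 72 h isoflavone, with 3 above and 3 below the control on each.

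The effector BAX, whose promoter with its 4 E-boxes is printed above, was lower at the later time of both agents. Its main probe set read 1548 in the control, 1706 on 6 h BR-DIM, 881 on 48 h BR-DIM, 1422 on 6 h isoflavone and 841 on 72 h isoflavone. The other one read 1664, 1415, 679.8, 1399.5 and 860.2 on the arrays in the same order. Both were therefore close to the control at 6 h, with log2 ratios between -0.25 and 0.14, and lower at 48 h (-0.81 and -1.29) and 72 h (-0.88 and -0.95). Relative to 6 h of the same agent, without the control array, they were lower too, at -0.95 and -1.06 for BR-DIM against -0.76 and -0.70 for isoflavone. Without a control for each time, length of exposure and time in culture cannot be told apart in these values. On 48 h BR-DIM all 9 luminal markers were called lower too, and on 72 h isoflavone KLK3 (-1.72) and KLK2 (-2.51) were. Any link of BAX to these markers was not tested. BAX was not called by its main probe set on any treated array, and with its probe sets averaged it passed 2-fold on 48 h BR-DIM (-1.05).

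BAK1, the other effector, has 1 probe set. It read 419.5 in the control, 278 on 6 h BR-DIM, 281 on 48 h BR-DIM, 176 on 6 h isoflavone and 320.0 on 72 h isoflavone. All 4 treated values were below the control, with log2 ratios of -0.59, -0.58, -1.25 and -0.39, and the call on 6 h isoflavone again fell on an array low in luminal markers. With the floor as pseudocount that ratio was -0.92, short of the call.

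Counted over probe sets, 1 of 26 measured member probe sets was called lower and 0 higher on 6 h BR-DIM, where 1.38% of all single-gene probe sets were lower and 2.56% higher. On 48 h BR-DIM 5 of 27 were lower (4.41%) and 2 higher (4.82%), the latter both of PMAIP1, and the lower ones of BCL2L1, MCL1, BAX and BCL2L11. On 6 h isoflavone 4 of 26 were lower (3.52%) and 0 higher (1.18%). On 72 h isoflavone 2 of 27 were lower (3.19%), 1 each of MCL1 and BCL2L11, and 1 higher (4.21%), of PMAIP1. Probe sets of 1 gene share its transcripts and are not independent.

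BH3-only genes and survival genes were then set against each other. On 6 h BR-DIM the median log2 ratio to control was 0.08 for the 4 BH3-only genes and -0.13 for the 3 survival genes, a difference of 0.21. On 48 h BR-DIM the medians were -0.06 and -0.35, a difference of 0.30. On 6 h isoflavone they were -0.10 and -0.30, a difference of 0.20, and on 72 h isoflavone they were -0.20 and -0.21, a difference of 0.01. Of the 12 pairs of a BH3-only and a survival gene, 6 to 8 had the BH3-only gene higher on these arrays. The differences were larger and of the other sign in the comparisons with 6 h isoflavone as denominator, at -0.96 for 72 h isoflavone and -0.93 for 6 h BR-DIM. Without PMAIP1 the differences were 0.14, 0.11, -0.06 and -0.05, so the sign on the isoflavone arrays turned with that gene. Without _s_at and _x_at probe sets the BR-DIM differences turned to -0.30 and -0.62. That setting leaves out PMAIP1 and also exchanges the main probe sets of MCL1 (0.31 and 0.07 in place of -0.61 and -0.35) and BID (-0.54 and -0.64 in place of -0.26 and -0.25). The ranges of the classes overlapped on every array. PMAIP1 relative to MCL1, its main binding partner, stood at 1.18, 1.75, 0.64 and 1.06 on the log2 scale over the control in the same order of arrays. These values rest on the main MCL1 probe set, whose direction some of the other MCL1 probe sets share and some do not. BAX relative to BCL2 stood at -0.51, -1.33, 0.18 and -1.59, a value that rests on the main BCL2 probe set, whose direction another probe set does not share.

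**Figure D3:**
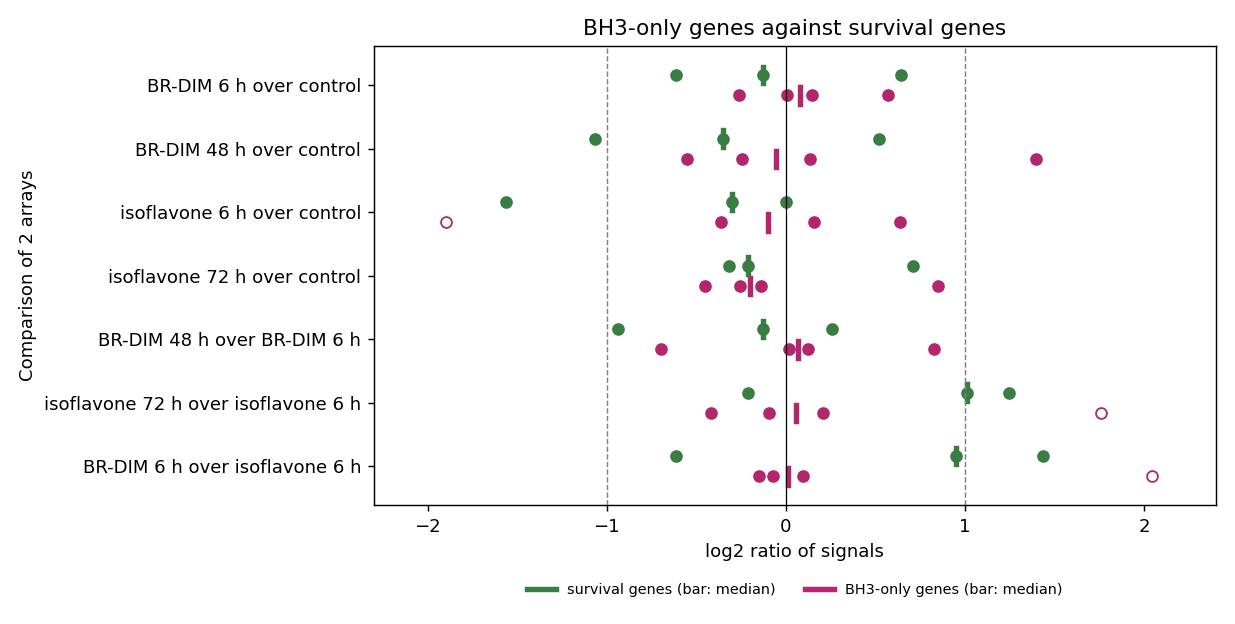
Log2 ratio of signals (horizontal axis) of each measured survival gene (green) and BH3-only gene (magenta) in 7 comparisons of 2 arrays, with bars at the medians, open points for bounds and dashed lines at 2-fold. The classes overlap in every comparison, and the medians stand apart most, by -0.96 and -0.93, in the comparisons that have 6 h isoflavone as denominator.

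In 3 comparisons the control was left out. The ratio of 48 h BR-DIM to 6 h BR-DIM had 0 of 9 members called, beside 1.83% of all genes higher and 3.74% lower, and the lowest ratios were those of BAX (-0.95) and BCL2L1 (-0.94). After quantile normalization of the arrays the split over all genes moved from 245 higher and 501 lower to 334 and 413. The ratio of 72 h to 6 h isoflavone had 3 members higher (7.77% of all genes) and 0 lower (1.89%). These were BIK (1.76, a bound), BCL2L1 (1.25) and BCL2 (1.01), each of which had its lowest signal of the 5 arrays on 6 h isoflavone. BCL2 and BCL2L1 lost this call with the floor as pseudocount (0.75 and 0.87) and with all probe sets averaged (0.25 and 0.35), and BCL2 also after quantile normalization (0.86). The agents shared a dose and a time at 6 h only. There BR-DIM over isoflavone had BIK (2.05, a bound) and BCL2L1 (1.43) called higher (7.01% of all genes), the latter not with all probe sets averaged (0.74), and 0 members lower (1.12%). Quantile normalization moved the split over all genes there from 916 higher and 146 lower to 688 and 249. MCL1 stood lowest (-0.61) and PMAIP1 was nearly level (-0.07, or 0.56 by its other probe set). In both comparisons the array in the denominator is the one low in luminal markers, whose list median was 2.52 in the former and 2.43 in the latter. At 48 h and 72 h the times differ, and the values stand side by side above without a comparison.

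Other genes of the family outside the core were looked at in the same way. The list of these genes has 17 entries with a probe set, of which 12 or 13 were measured on each treated array. On 6 h BR-DIM 1 of 13 was called higher (2.86% of all genes), and on 48 h BR-DIM 1 of 12 (5.33%). On 6 h isoflavone 0 of 12 were higher (1.18%) and 1 was lower (3.82%), and on 72 h isoflavone 2 of 12 were higher (4.8%). These counts are too few to be read as a share. HRK, a BH3-only gene, read 164 in the control, 407 at 6 h of BR-DIM, 478 at 48 h, 117 at 6 h of isoflavone and 384 at 72 h. It was called higher on 3 arrays (1.31, 1.54 and 1.23) and not on 6 h isoflavone (-0.49). BOK, an effector-like gene, was called lower on 6 h isoflavone alone (254 to 69.2, a bound of -1.38). The mitophagy receptor BNIP3L was called higher on 72 h isoflavone alone, from 1251 to 2842 (1.18). MOAP1, which binds BAX, was 0.88 and 0.90 on 48 h BR-DIM and 72 h isoflavone. The list median was 0.18, -0.13, -0.15 and 0.41 on 6 h BR-DIM, 48 h BR-DIM, 6 h isoflavone and 72 h isoflavone.

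Downstream of the family the ratios were small. Over all genes, 1.18% to 5.33% were called higher and 0.806% to 3.87% lower on the treated arrays. Beside these shares, counts of 0 or 1 in the short lists here are too few to be read as a result. Of 13 measured genes of mitochondrial release, the apoptosome and the caspase-activated nuclease, 1 was called on any treated array. This was DFFA, the inhibitor of that nuclease, which was 2809 in the control and 5666 on 48 h BR-DIM (1.01). Cytochrome c (CYCS) lay between -0.19 and 0.28 and APAF1, the scaffold of the apoptosome, between -0.17 and 0.28. The largest other ratios were those of DFFB, the nuclease (-0.88 on 72 h isoflavone), ENDOG, a mitochondrial nuclease (-0.85 on 48 h BR-DIM), and AIFM1, a mitochondrial flavoprotein (-0.55 on 48 h BR-DIM). The list median was -0.17, -0.16, -0.06 and -0.11 in the usual order of arrays. Of 6 inhibitor of apoptosis genes, 0 were called on any array. Among them BIRC5 (survivin), which is also a mitosis gene, was lowest on 72 h isoflavone at -0.83, BIRC7 stood at a bound of 0.73 there, and NAIP reached -0.61 and XIAP 0.44, with list medians of -0.03, 0.04, -0.03 and -0.02. Ubiquitin ligases and deubiquitinases that act on BCL2 family proteins had 0 of 10 measured genes called. In that list FBXW7, a ligase for MCL1, reached 0.69 on 48 h BR-DIM, FBXO10 was -0.56 on 48 h BR-DIM and BTRC reached 0.40. HUWE1, another ligase for MCL1, lay between 0.48 and 0.66 on the 4 arrays. Its probe set, with an ID ending in _x_at, read 42198 in the control, beside 48086 for GAPDH. Whether it measures HUWE1 alone was not examined. The medians of that list were 0.13, 0.21, 0.17 and 0.01.

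Among the lists around the core, the transcription factors known to act on BCL2 family genes held most of the calls. This list was chosen with earlier results of these data known, so its counts are no test against all genes. Of 16 measured, 5, 6, 3 and 6 were called higher on 6 h BR-DIM, 48 h BR-DIM, 6 h isoflavone and 72 h isoflavone. Over all genes the shares called higher were 2.86%, 5.33%, 1.18% and 4.8%. On each array 0 of the list were called lower, beside 0.806%, 3.87%, 3.82% and 2.06% of all genes. The list medians were 0.13, 0.38, 0.02 and 0.30. DDIT3 (CHOP), a stress factor, read 315 in the control, 2485 at 6 h of BR-DIM, 2068 at 48 h, 327 at 6 h of isoflavone and 2231 at 72 h. It was near the control on 6 h isoflavone and rose on the other 3 arrays. ATF4 (1.17, 1.35, -0.35 and 1.28) and CEBPB (2.11, 2.03, -0.81 and 1.92) rose on the same 3 arrays and were below the control on 6 h isoflavone, by less than 2-fold. ATF3 rose on all 4 arrays (2.61, 3.24, 1.57 and 2.41), and so did JUN (1.20, 1.47, 1.11 and 1.52). TP73 was called on 48 h BR-DIM alone (1.51). EGR1, an immediate early gene, was called on the isoflavone arrays (1.59 and 2.01). Whether any of these factors acts on the members here was not tested.

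**Figure D4:**
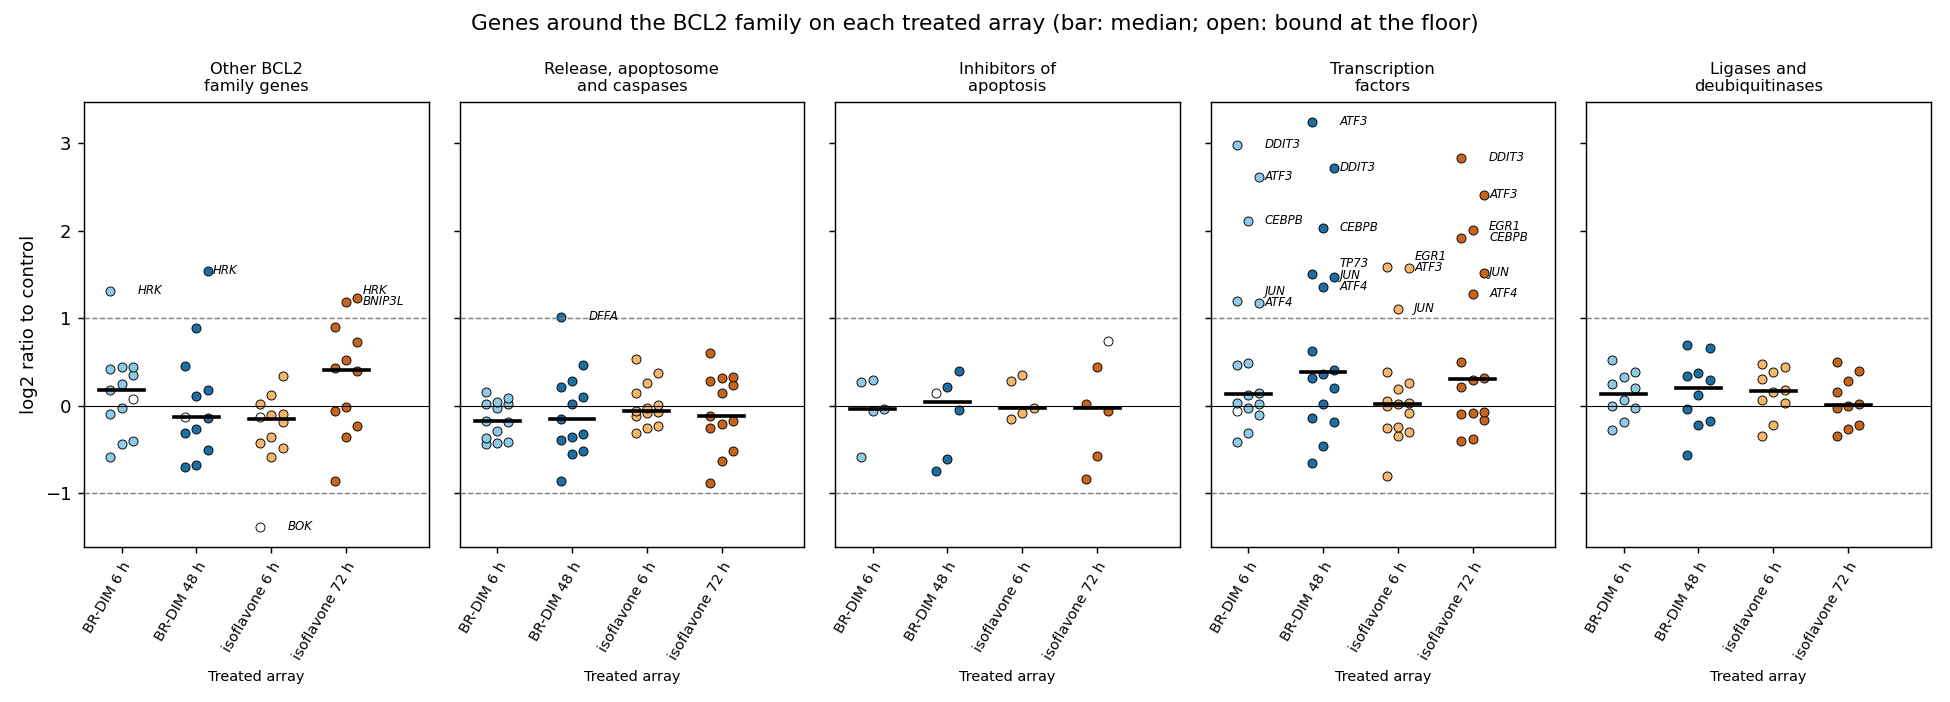
Log2 ratio to control (vertical axis) of every measured gene of 5 lists around the BCL2 family on each treated array, with 1 point per gene, bars at the medians and open points for bounds; genes past 2-fold (dashed lines) are named. Calls lie mainly among the 16 transcription factors, at 3 to 6 genes per array (1.18% to 5.33% of all genes were called higher). Ligases and inhibitors of apoptosis have 0. The lists were chosen with earlier results of these data known.

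Genes with the most similar pattern were looked up for the 2 members with the largest ratio to control, BIK and BCL2L1, by the Euclidean distance of the 5 log2 signals centred on their own mean, among 8421 genes with a mean signal of at least 4 times the floor. Nearest to BIK were MTUS1 (distance 0.23), RASSF5 (0.36) and CARMIL1 (0.41), which stood at -1.75, -1.57 and -1.40 on 6 h isoflavone against the control. Nearest to BCL2L1 were NHSL3 (0.27), TTC39C (0.28) and CD9 (0.36), at -1.87, -1.51 and -2.04 there and at -1.30, -0.92 and -1.30 on 48 h BR-DIM. All 6 genes had their lowest signal on 6 h isoflavone, an array low in luminal markers. They were picked for likeness to BIK and BCL2L1 on these same arrays, so this shared low point comes with the choice.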

How the data were processed

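C4-2B cells gave 5 arrays, 1 per condition, and groups were taken from the sample titles. The deposited values are linear MAS5 signal intensities, made by the authors with Affymetrix software. Its version, scaling target and detection calls are not given in the sources used here. Median signals were 89.3 to 109, and precision is limited by the number of arrays. Of 54613 probe sets, 41091 map to 1 gene, 1801 to several and 11721 are not in the gene table, and only the first were used. Ratios were computed with Python 3.11.15, numpy 2.4.6 and pandas 2.3.3, on signals as deposited, with the floor at 97.1 and the 2-fold rule. The code for the 2-fold rule was checked on simulated signals, which tests the code and not the calls. The 10 members, the gene lists and the naming rule (all members, and up to 4 genes per list with the largest ratio to control) were chosen with earlier results of these data known. Some listed genes were not analysed here. ATF4, JUN, TP73, CYCS, APAF1 and the markers given with values fall outside that rule and were picked once values were known. The alternatives were quantile normalization, signals without the floor, a higher floor (471.7, the 75th percentile), the floor added as a pseudocount, averaging all probe sets of a gene, leaving out _s_at and _x_at probe sets, and 1.5-fold and 3-fold rules.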

Additional observations from a re-analysis of the deposited data

How the results depend on the processing

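No paired analysis was possible because each group has 1 array, and for the same reason no array was left out. Of 336 ratios of single members under the alternatives, 305 kept their direction and side of 2-fold, 9 lost the 2-fold call, 3 gained it, 19 uncalled ones changed sign or left 0, and 0 called ones reversed. As log2 ratios to control, BCL2L1 on 48 h BR-DIM was -0.80 when the floor served as pseudocount and -0.97 by averaging probe sets, and BAK1 on 6 h isoflavone was -0.92 with the pseudocount, all short of 2-fold, while BAX on 48 h BR-DIM passed it by averaging (-1.05). The BH3-only minus survival difference turned to -0.30 on 6 h BR-DIM and -0.62 on 48 h BR-DIM without _s_at and _x_at probe sets, a setting that leaves out PMAIP1 and exchanges the main probe sets of MCL1 and BID. With the floor at 471.7, 5 members stayed measured, and MCL1 was the only survival gene among them. The difference was then 0.62 on 6 h BR-DIM over control, 0.54 for 6 h BR-DIM over 6 h isoflavone and 0.12 for 72 h over 6 h isoflavone. With probe sets averaged the last of these comparisons gave 0.012 and BR-DIM over isoflavone at 6 h gave -0.34.

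Counts of members called also depended on the rule. At 1.5-fold they were 1 higher (12.4% of all genes) and 2 lower (5.15%) on 6 h BR-DIM. On 48 h BR-DIM 2 were lower (12.6%). On 6 h isoflavone 1 was higher (7.15%), and on 72 h isoflavone 2 were higher (14.99%) and 1 lower (9.73%). For 48 h over 6 h BR-DIM 1 was higher (8.68%) and 3 lower (11.9%). For 72 h over 6 h isoflavone 1 was lower (10.3%). BR-DIM over isoflavone at 6 h had 4 higher (17.5%) and 1 lower (6.55%). Counts of 1 or 2 members are too few to be read as a share. At 3-fold the counts were 0 in both directions on 48 h BR-DIM (0.921% of all genes higher and 0.813% lower). On 6 h isoflavone 1 was lower (0.971%). The comparisons of 72 h with 6 h isoflavone (2.33%) and of the agents at 6 h (1.87%) had 1 higher each. Averaging gave 1 lower for 48 h over 6 h BR-DIM (2.76%) and 1 higher on 72 h isoflavone (PMAIP1, beside 3.50%). It gave 1 higher in each of the latter comparisons (5.87% and 5.45%). BCL2, BCL2L1, BAK1 and BIK lay under the higher floor on every array and were not measured with it. That left 0 lower on 48 h BR-DIM (2.15%) and 6 h isoflavone (0.831%). It also left 0 higher in the latter comparisons (3.43% and 2.11%). Every member called there in the main setting is among these unmeasured genes, so the counts of 0 follow from the floor. The pseudocount gave 0 lower on 48 h BR-DIM (2.79%) and 1 higher for 72 h over 6 h isoflavone (5.67%). Without _s_at and _x_at probe sets 0 were higher on 48 h BR-DIM (5.53%). Other counts stayed within 1.5 times.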
